A study of Mus musculus with 17 samples.

Results

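The genes that write, erase and read lysine acetylation were followed in the hippocampus of mice that lost CBP, an acetyltransferase encoded by Crebbp. The set held 35 genes of the 55471 in the deposited table, chosen by name: 12 lysine acetyltransferases including Crebbp itself, 11 histone deacetylases (HDACs), 7 sirtuins and 5 bromodomain genes. The question was whether the other enzymes shift when CBP is lost, in saline and after kindling.

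Acetyltransferases transfer an acetyl group from acetyl-CoA to lysines of histones and other proteins, HDACs and sirtuins remove it, and bromodomains bind the acetylated lysine. CBP and its paralogue p300, encoded by Ep300, form the KAT3 family and are recruited by activity-dependent transcription factors such as CREB. Class I HDACs are nuclear and sit in corepressor complexes, class IIa HDACs bind MEF2 factors and leave the nucleus of neurons when calcium signalling is active, and sirtuins need NAD for their reaction.

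Total RNA was sequenced from 17 hippocampal samples of mice aged 3 to 6 months, in 6 groups; the labels give the strain as C57BL/6 and the study's methods as C57BL/6J. CBP-ifKO mice carry floxed Crebbp alleles and the Camk2a-creERT2 transgene, which acts in excitatory neurons of the forebrain, and controls were littermates that the series text gives as negative for creERT2. Both genotypes received 5 administrations of tamoxifen. Sal mice had saline only, PTZ0 mice were kindled with the convulsant pentylenetetrazole (PTZ) and then given saline, and PTZ45 mice were kindled and then given 45 mg/kg PTZ, with hippocampi taken 45 min after the last injection. Kindled here names the course of repeated PTZ injections and not its outcome. The paper reports that no CBP-ifKO reached the stage of progressive seizures, while the controls came to have them. In PTZ0 and PTZ45 the genotypes thus also differed in seizure history, and its part in the values below was not tested. Each group had 3 libraries except Control PTZ45, with 2, so that 8 control and 9 CBP-ifKO libraries were compared. Crebbp is lost only where the driver acts, so interneurons, glia and vessels of these samples keep the gene, and in bulk tissue fewer cells of a type and less RNA per cell cannot be told apart.

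The libraries held 5831992 to 18735643 counts. Values are normalized counts, which are counts divided by the DESeq2 size factor of the library. Esr1, the oestrogen receptor gene whose ligand-binding part is used in creERT2, stood at 57.6 ± 10.9 in the 8 control libraries and 818 ± 90.5 (mean ± SD) in the 9 CBP-ifKO libraries, with no overlap, as the genotype labels have it. Fos, an immediate early gene, ranged from 2483 to 2915 in Control PTZ45, from 163 to 288 in CBP-ifKO PTZ45, and from 13.4 to 62.4 in the other 4 groups. Summed choroid plexus markers were 11340 to 46150 in 5 libraries (2 control, 3 CBP-ifKO) and 519 to 1287 in the other 12. Lane 3 held the Sal and PTZ0 controls, lane 4 the PTZ45 controls and Sal CBP-ifKOs, and lane 5 the other CBP-ifKOs. No lane held both genotypes under the same treatment.

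All 35 genes had counts in every library, at least 31. Per kilobase of exon, the mean level in controls was highest for Ncoa1, a nuclear receptor coactivator, at 357 ± 21.1 normalized counts (SD, n = 8), followed by Hdac11 at 335.8 ± 20.99, Brd9 at 272 ± 11.1 and Hdac2 at 258 ± 21.1. Ncoa1 and Hdac11 differed by no more than their spread, and so did Brd9 and Hdac2. The lowest levels per kilobase were those of Hdac1 at 25.7 ± 4.52, Sirt5 at 26.8 ± 1.22 and Hdac7 at 28.3 ± 3.19, which lay within each other's spread. The class medians per kilobase ran from 58.4 for the sirtuins to 134 for the bromodomain genes, against 45.0 for the 18682 genes tested. Crebbp, at 160.2 ± 14.9 per kilobase, was the ninth and Ep300, at 81.3 ± 9.26, the twentieth in this order.

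Several of the other enzymes differed by small amounts between genotypes. Over all treatments, 11 of 35 genes differed between genotypes (31.4%), 5 higher and 6 lower in CBP-ifKOs. DESeq2 called 19.3% of all genes tested in the same fit, 7.76% higher and 11.5% lower, and 25.4% of genes with mean counts in the range of these 35. Without Crebbp the count was 10 of 34 (29.4%), and edgeR called 10 of the 35. A gene was called when its adjusted p in the two-sided Wald test of DESeq2, over all genes, was under 0.05. Beside Crebbp itself, the largest differences were those of Hdac9 and Hdac5, at 0.767-fold and 0.796-fold, and of Kat2b, at 1.24-fold. The median log2 fold change of the 35 genes was 0.06, against 0.01 for all genes tested, and the median absolute change was 0.10 against 0.12. All 10 called genes other than Crebbp had the same sign in Sal, PTZ0 and PTZ45.

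**Figure D1:**
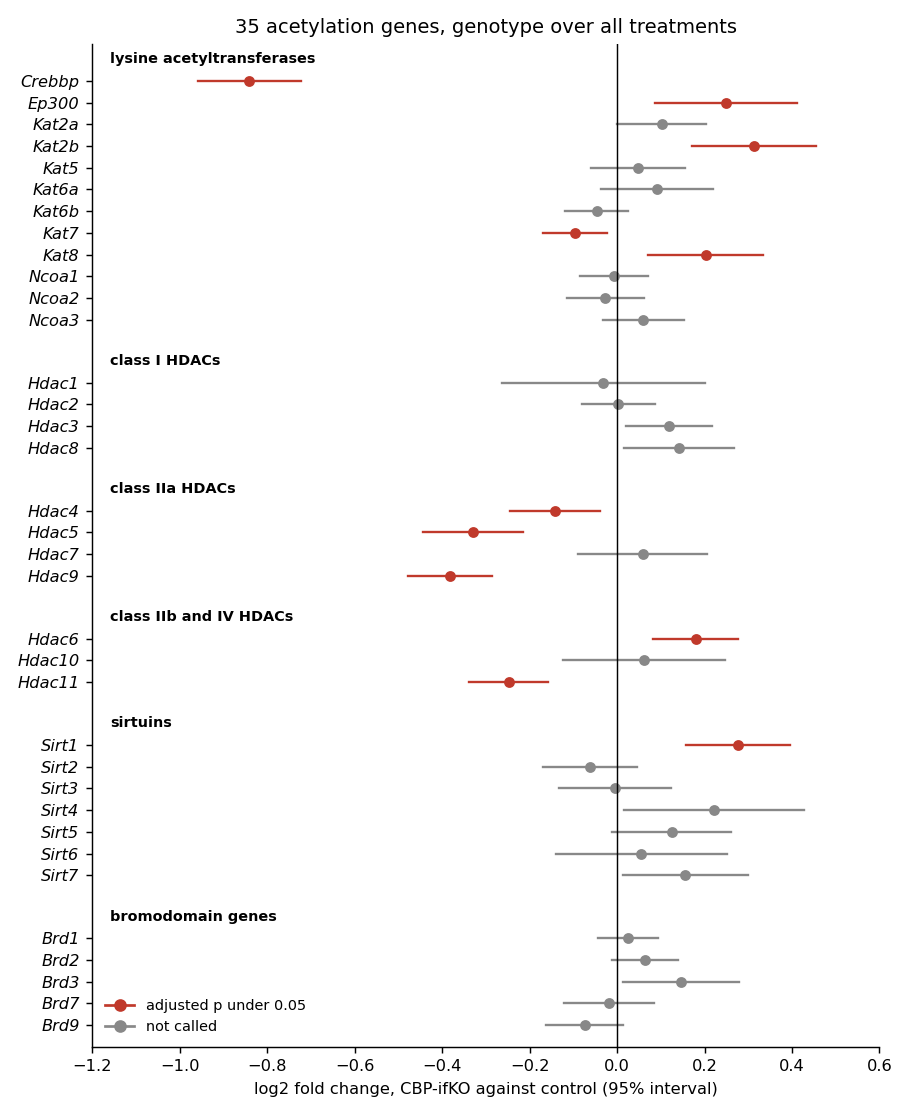
Log2 fold change of the 35 genes, CBP-ifKO against control over all treatments, with 95% Wald intervals; red marks genes with an adjusted p under 0.05. Crebbp stands alone at -0.84, Hdac9, Hdac5 and Hdac11 lie below 0, and Kat2b, Sirt1 and Ep300 lie above it.

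Crebbp, the targeted gene (chromosome 16, 4081328 to 4213997, GRCm38), lay in CBP-ifKOs below the whole control range. Crebbp in controls counted 1824, 2149 and 2415 in Sal, 2193, 2057 and 2039 in PTZ0, and 2429 and 2248 in PTZ45. In CBP-ifKOs it counted 1337, 1284 and 1084 in Sal, 1278, 1153 and 1226 in PTZ0, and 1222, 1276 and 1061 in PTZ45. The genotypes did not overlap, and the CBP-ifKO mean was 55.95% of the control mean. The log2 fold change was -0.84 ± 0.06 (SE) over all treatments (adjusted p = 3.41e-41, DESeq2), -0.79 in Sal, -0.78 in PTZ0 and -0.98 in PTZ45. These are counts over all exons, so that reads of the recombined allele outside the removed part are among them.

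Ep300, which encodes p300 (chromosome 15, 81585351 to 81652077), was higher in CBP-ifKOs, with overlap. These counts are of RNA. For the protein, the study saw no rise of p300 in hippocampal extracts of CBP-ifKOs by Western blot. Ep300 in controls counted 955, 1262 and 1318 in Sal, 1095, 1096 and 1154 in PTZ0, and 1329 and 1071 in PTZ45. Ep300 in CBP-ifKOs counted 1546, 1592 and 1210 in Sal, 1478, 1189 and 1431 in PTZ0, and 1507, 1408 and 1033 in PTZ45. Of the 9 CBP-ifKO libraries, 6 lay above the highest control, and the lowest, in PTZ45, lay within the control range. The log2 fold change was 0.25 ± 0.08 (adjusted p = 0.0189, DESeq2). It was called in PTZ0 alone (0.29 ± 0.09, adjusted p = 0.0149), a call kept in 1 of the 6 fits without 1 library and lost with the replicate number as a block (adjusted p = 0.0515) and in 1 fit of all 17 libraries (adjusted p = 0.231), and missed the threshold in Sal (0.29, adjusted p = 0.316) and PTZ45 (0.14, adjusted p = 0.937); the difference between treatments was tested only for Sal against PTZ45 (interaction -0.16 ± 0.29, adjusted p = 1). In Sal, Ep300 stood at 0.16 without Control Sal replicate 1, and at 0.41 and called without CBP-ifKO Sal replicate 3 (adjusted p = 0.0264, DESeq2). In the 12 libraries with low choroid plexus markers the value over all treatments was 0.21 ± 0.13 and was not called (adjusted p = 0.357).

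The libraries that were low for Crebbp within their group were often low for Ep300 too, as in replicate 1 of Control Sal, replicate 3 of CBP-ifKO Sal and replicate 3 of CBP-ifKO PTZ45. The ratio of Ep300 to Crebbp per exonic length was 0.507 ± 0.034 (SD, n = 8) across control libraries, from 0.452 to 0.557, and 1.07 ± 0.083 (SD, n = 9) with CBP lost, from 0.923 to 1.18. Per length the paralogues were thus at about equal RNA levels in CBP-ifKOs, while Crebbp was the higher in each control library. The sum of their normalized counts was 3329 ± 318 in controls and 2590 ± 279 in CBP-ifKOs.

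**Figure D2:**
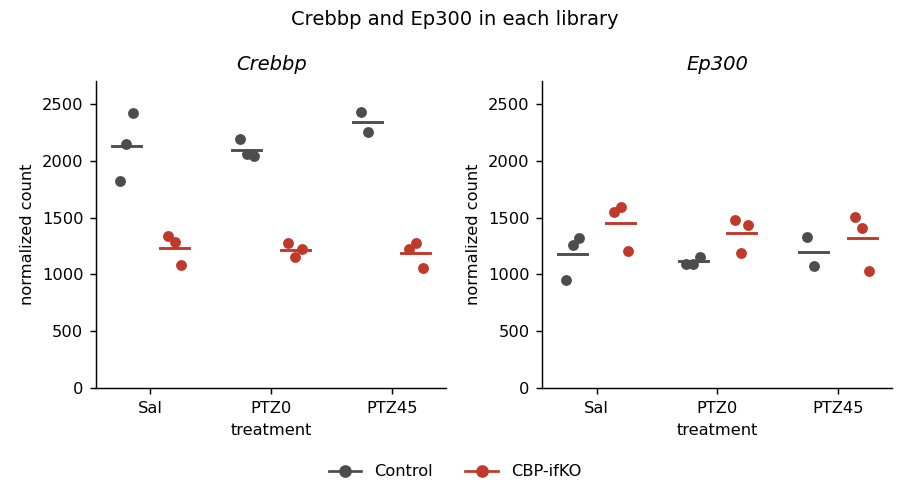
Normalized counts of Crebbp and Ep300 in each library by treatment; points are libraries and bars group means. Crebbp lies at or below 1337 in CBP-ifKOs and at or above 1824 in controls, whereas the Ep300 values of the genotypes overlap.

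Of the other 10 acetyltransferases, Kat2b and Kat8 were higher, Kat7 was lower, and 7 were not called. Kat2b, known as PCAF and a paralogue of Kat2a, rose in CBP-ifKOs. Kat2b in controls counted 269, 294 and 288 in Sal, 316, 351 and 319 in PTZ0, and 273 and 315 in PTZ45. In CBP-ifKOs Kat2b counted 444, 326 and 354 in Sal, 326, 362 and 419.5 in PTZ0, and 383, 351 and 391 in PTZ45. The groups did not overlap in any treatment but PTZ0, and 6 of 9 CBP-ifKO libraries were above all controls. Kat2b had a log2 fold change of 0.31 ± 0.07 (adjusted p = 2.45e-04, DESeq2).

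Kat8, also called MOF, acetylates histone H4. Kat8 in controls counted 228, 207 and 229 in Sal, 202, 169.8 and 216 in PTZ0, and 190.1 and 201 in PTZ45. In CBP-ifKOs Kat8 counted 237, 218 and 245 in Sal, 230.1, 242 and 248 in PTZ0, and 210.3, 238 and 250 in PTZ45. The Sal groups overlapped and the kindled ones did not. For Kat8 this gave a log2 fold change of 0.20 ± 0.07 (adjusted p = 0.0176, DESeq2). It lost the call without Control PTZ0 replicate 2 or Control PTZ45 replicate 1, and in the 12 libraries with low choroid plexus markers (0.15, adjusted p = 0.304).

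Kat7, also called HBO1, acetylates histones H3 and H4 with ING and BRPF partners. Kat7 in controls counted 989, 969 and 974 in Sal, 980.5, 944 and 1050 in PTZ0, and 1068 and 1021 in PTZ45. In CBP-ifKOs Kat7 counted 892, 917 and 972 in Sal, 954, 933 and 955 in PTZ0, and 892, 933 and 984 in PTZ45. These ranges overlapped in Sal, in PTZ0 and over all treatments, but not within PTZ45. The difference was the smallest among the called genes, at -0.10 ± 0.04 (adjusted p = 0.0499, DESeq2). It kept the call in 3 of the 17 fits that left out 1 library and lost it with edgeR and with TMM factors.

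The 7 uncalled acetyltransferases were Kat2a, Kat5, Kat6a, Kat6b and the coactivators Ncoa1, Ncoa2 and Ncoa3. Their log2 fold changes ran from -0.05 for Kat6b to 0.10 for Kat2a, and the widest interval, that of Kat6a, ended at 0.22. Ncoa1, with an interval from -0.09 to 0.07, was the closest to no difference relative to its precision.

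Class IIa was the class with the most lower genes: 3 of its 4 members fell, where 11.5% of all genes tested were called lower. Hdac9, Hdac5 and Hdac4 fell, and Hdac7, which is known from vessels and thymocytes and was low here, stood at 0.06 ± 0.08 (adjusted p = 0.651).

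Hdac9 (chromosome 12, 34047580 to 34917095) separated the genotypes completely. Hdac9 in controls counted 821, 761 and 831 in Sal, 854, 910.1 and 802 in PTZ0, and 907 and 1002 in PTZ45. In CBP-ifKOs Hdac9 counted 657, 726 and 582 in Sal, 572, 655 and 661 in PTZ0, and 746, 714 and 716 in PTZ45. Every CBP-ifKO library lay below every control. Crebbp and Hdac9 were thus the 2 of 35 genes without overlap (5.71%), against 2.99% of all genes tested. Counting only those lower in CBP-ifKOs, it was 2.16% of all genes. Leaving out Crebbp, the targeted gene, 1 of 34 genes did not overlap, about the share of all genes tested. On the log2 scale Hdac9 differed by -0.38 ± 0.05 (adjusted p = 5.53e-13, DESeq2). Within treatments it was -0.44 ± 0.09 in PTZ0 (adjusted p = 1.31e-04), -0.39 ± 0.11 in PTZ45 (adjusted p = 0.0164) and -0.31 ± 0.11 in Sal, where it was not called (adjusted p = 0.115). The PTZ45 call was lost without any 1 of the 5 libraries (2 of these fits left a single control). It was also lost with the replicate number as a block. In PTZ45, replicate 3 existed in CBP-ifKOs alone, so that the fit with this block compared 2 libraries of each genotype.

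Hdac5 (chromosome 11, 102194432 to 102230166), a class IIa deacetylase known for its activity-dependent export in neurons, fell by a similar amount. Hdac5 in controls counted 1166, 1263 and 1260 in Sal, 1232, 1086 and 1104 in PTZ0, and 1072 and 846 in PTZ45. In CBP-ifKOs Hdac5 counted 837, 1079 and 1058 in Sal, 969, 938 and 827 in PTZ0, and 756, 754 and 756 in PTZ45. The genotypes did not overlap within any treatment, but the lowest control, in PTZ45, lay below several CBP-ifKO libraries of other treatments. Hdac5 had a log2 fold change of -0.33 ± 0.06 (adjusted p = 5.70e-07, DESeq2), and -0.33 ± 0.09 in PTZ0 (adjusted p = 5.23e-03), where it was lost without Control PTZ0 replicate 1 or CBP-ifKO PTZ0 replicate 3, and with the replicate number as a block together with GC correction (-0.24, adjusted p = 0.206). It missed the threshold in Sal (-0.32, adjusted p = 0.0991) and PTZ45 (-0.34, adjusted p = 0.11). In Sal it was called in 1 fit of all 17 libraries (adjusted p = 0.0434, DESeq2) and without CBP-ifKO Sal replicate 3 (-0.38, adjusted p = 0.0241). Without CBP-ifKO Sal replicate 1 it stood at -0.21. Hdac5 transcripts have a GC content of 59.8%, and libraries differed in how counts follow GC content. With that trend removed, the value over all treatments was -0.26 ± 0.05 (adjusted p = 6.54e-07).

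Hdac4 (chromosome 1, 91928779 to 92195699) showed the smallest fall of the 3. Hdac4 in controls counted 1012, 1065 and 1192 in Sal, 1110, 1028 and 1033 in PTZ0, and 1093 and 862 in PTZ45. In CBP-ifKOs Hdac4 counted 1023, 992 and 900.1 in Sal, 1067, 898 and 956 in PTZ0, and 905, 889.7 and 883 in PTZ45. The genotypes overlapped in each treatment, and the log2 fold change was -0.14 ± 0.05 (adjusted p = 0.0405, DESeq2). It kept the call in 9 of the 17 fits without 1 library and missed it with GC correction (-0.12, adjusted p = 0.0654). Of its exonic bases, 22.4% are shared with an antisense gene, Gm26720, and the sources used here do not say whether reads were counted by strand.

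**Figure D3:**
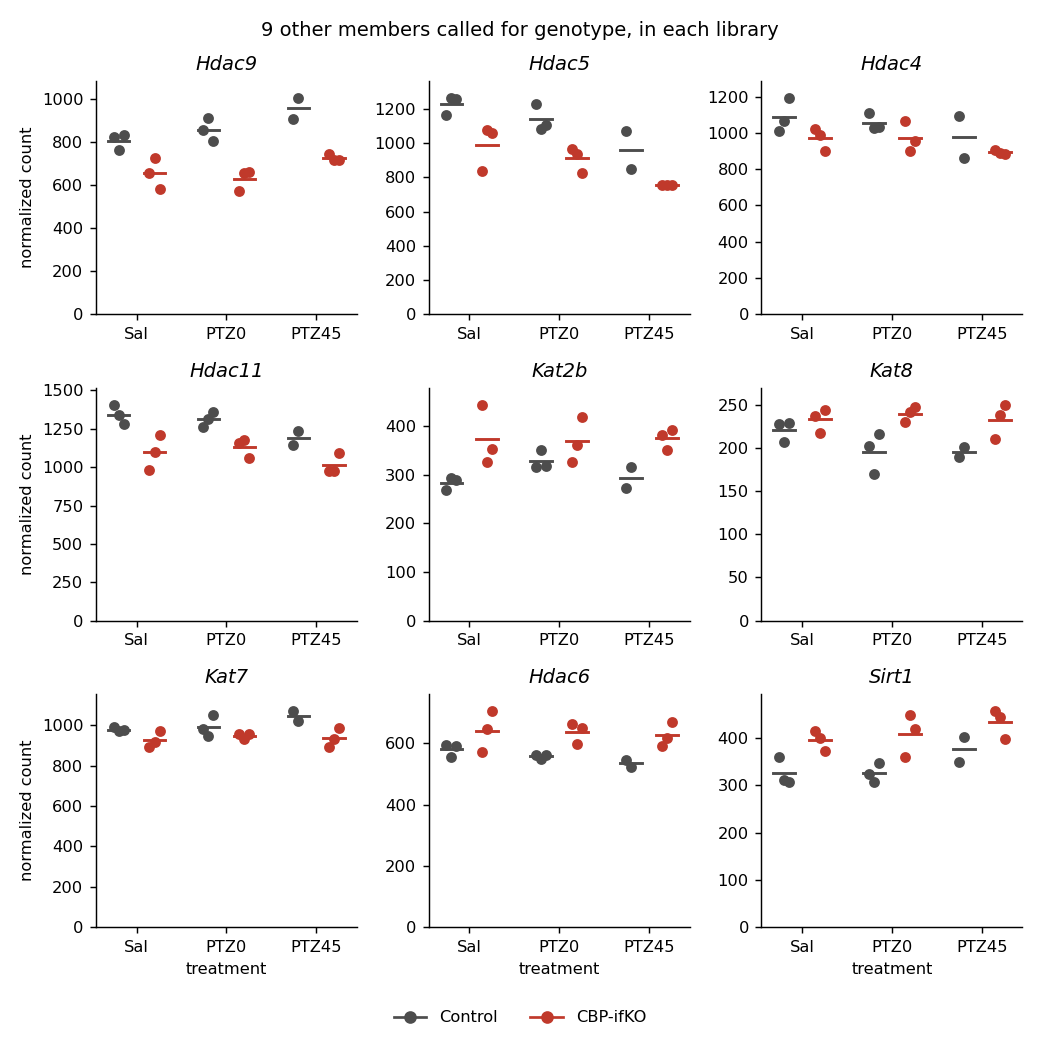
Normalized counts of the 9 called genes other than Crebbp and Ep300 in each library, by treatment; points are libraries, bars are group means and each axis starts at 0. Hdac9 does not overlap between genotypes, with controls at or above 761 and CBP-ifKOs at or below 746.

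The sequences before the start sites of these 3 genes are shown because they fell together and because CBP is recruited by CREB. Each is the 250 bases before the most upstream RefSeq start (GRCm38.p6), on the strand of the gene, and no exon of GENCODE M21 overlaps it. Hdac9 lies at chr12:34917096-34917345, Hdac5 at chr11:102230173-102230422 and Hdac4 at chr1:92180342-92180591, all on the minus strand. The Hdac4 window lies inside the GENCODE span of the gene, downstream of its outermost start. Capitals mark TGACG, the core of the CREB motif, and a MEF2 motif, CTA and TAG with 4 bases of any kind between them, on either strand.
Hdac9: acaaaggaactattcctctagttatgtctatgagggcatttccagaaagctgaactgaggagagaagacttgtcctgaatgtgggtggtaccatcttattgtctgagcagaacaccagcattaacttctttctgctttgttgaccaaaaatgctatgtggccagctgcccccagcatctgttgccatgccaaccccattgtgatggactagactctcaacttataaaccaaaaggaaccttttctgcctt
Hdac5: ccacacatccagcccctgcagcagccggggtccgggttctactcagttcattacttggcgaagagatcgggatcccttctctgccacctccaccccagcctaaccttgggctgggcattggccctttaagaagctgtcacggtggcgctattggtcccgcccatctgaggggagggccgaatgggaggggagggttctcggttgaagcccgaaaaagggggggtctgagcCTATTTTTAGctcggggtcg
Hdac4: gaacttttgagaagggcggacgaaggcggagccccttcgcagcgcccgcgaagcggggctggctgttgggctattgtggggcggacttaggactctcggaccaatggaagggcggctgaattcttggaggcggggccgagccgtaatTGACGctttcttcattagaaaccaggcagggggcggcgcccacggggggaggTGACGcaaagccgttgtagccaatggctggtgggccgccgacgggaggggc

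Hdac4 held TGACG at 103 and 51 bases before its start, Hdac5 held the MEF2 motif at 20 bases, and Hdac9 held neither. The full CREB motif TGACGTCA was in no window of the 29 genes of the set with a RefSeq promoter, and in 1.6% of such windows of all 27025 genes. TGACG, which TGACGTCA contains on both strands, was in 10 of the 29 (34.5%) and in 17.8% of all. The MEF2 motif was in 2 of the 29, Hdac5 and Hdac2, and in 3.23% of all. No match of these motifs was common to the windows of the 3 genes. Among other called genes, TGACG was also before Hdac11 and Kat7, which were lower, and before Kat2b, Kat8 and Sirt1, which were higher. Any part of these motifs in the genotype differences was not tested.

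Class IIb and class IV moved in both directions. Hdac11, the sole class IV deacetylase (chromosome 6, 91156665 to 91174692), fell. Hdac11 in controls counted 1406, 1341 and 1281 in Sal, 1264, 1311 and 1357 in PTZ0, and 1146 and 1233 in PTZ45. In CBP-ifKOs Hdac11 counted 981, 1098 and 1209 in Sal, 1159, 1174 and 1061 in PTZ0, and 973, 975 and 1092 in PTZ45. The genotypes did not overlap within any treatment. The log2 fold change was -0.25 ± 0.05 (adjusted p = 2.94e-06, DESeq2) and -0.20 ± 0.05 with GC correction (adjusted p = 4.32e-04), the transcript having a GC content of 57.4%. Of its exonic bases, 17.9% are shared with genes of the opposite strand.

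Hdac6, a cytoplasmic enzyme that deacetylates tubulin, rose. Hdac6 in controls counted 593, 556 and 592 in Sal, 562, 549 and 561 in PTZ0, and 545 and 524 in PTZ45. In CBP-ifKOs Hdac6 counted 572, 645 and 704 in Sal, 661, 599 and 648 in PTZ0, and 589.8, 618 and 668 in PTZ45. All but 2 CBP-ifKO libraries were above the highest control, and the log2 fold change was 0.18 ± 0.05 (adjusted p = 2.81e-03, DESeq2). Hdac10, the other class IIb gene, stood at 0.06 ± 0.09 (adjusted p = 0.714).

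The class I deacetylases, which include the main catalytic subunits of the NuRD, Sin3, CoREST and NCoR complexes, were not called. DESeq2 called 0 of 4 and edgeR 0, and 2 had an unadjusted p under 0.05. Hdac2, the most abundant of them per kilobase, stood at 0.00 ± 0.04 with an interval from -0.08 to 0.09. Hdac1 stood at -0.03 ± 0.12, Hdac8 at 0.14 ± 0.06 (adjusted p = 0.106) and Hdac3 at 0.12 ± 0.05 (adjusted p = 0.0761).

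Hdac3, the catalytic subunit of NCoR complexes, was the nearest to a call in this class. Hdac3 in controls counted 888, 889 and 812 in Sal, 876, 935 and 855 in PTZ0, and 895 and 839.9 in PTZ45. In CBP-ifKOs Hdac3 counted 848, 961 and 1001 in Sal, 978, 969 and 872 in PTZ0, and 873, 1006 and 1066 in PTZ45. The ranges overlapped in every treatment. It was called in 3 of the 17 fits without 1 library and in the 12 libraries with low choroid plexus markers (0.18, adjusted p = 0.0283).

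Among the 7 sirtuins, Sirt1 alone was called. Sirt1, a nuclear NAD-dependent deacetylase, was higher in CBP-ifKOs. Sirt1 in controls counted 360, 310.3 and 306 in Sal, 323, 308 and 348 in PTZ0, and 349 and 403 in PTZ45. In CBP-ifKOs Sirt1 counted 416, 400.5 and 372 in Sal, 360.4, 448 and 419.5 in PTZ0, and 456, 445 and 398 in PTZ45. The groups overlapped in PTZ45 alone, and 5 of 9 CBP-ifKO libraries were above all controls. The log2 fold change was 0.28 ± 0.06 (adjusted p = 1.04e-04, DESeq2), and 0.22 ± 0.08 (adjusted p = 0.0514) in the 12 libraries with low choroid plexus markers. The other 6 ran from -0.06 for Sirt2, which oligodendrocytes express strongly, to 0.22 for Sirt4, a mitochondrial sirtuin with an interval from 0.02 to 0.43. Sirt7 stood at 0.16 ± 0.07 (adjusted p = 0.119) and was called with GC correction (0.19, adjusted p = 0.0266).

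No bromodomain gene of the 5 was called by DESeq2 or edgeR, and 1 had an unadjusted p under 0.05. This was Brd3, a member of the BET family, at 0.15 ± 0.07 (adjusted p = 0.116). Without CBP-ifKO Sal replicate 3 it was called (adjusted p = 0.0214, DESeq2). Brd3 in controls counted 478, 544 and 606 in Sal, 584, 502 and 543 in PTZ0, and 531 and 566 in PTZ45. In CBP-ifKOs Brd3 counted 695, 730.4 and 518 in Sal, 583, 568 and 579.6 in PTZ0, and 629.8, 581 and 548 in PTZ45. The genotypes overlapped in each treatment, and the high values came from replicates 1 and 2 of CBP-ifKO Sal. Brd2, another BET gene, stood at 0.06 ± 0.04, and Brd1, Brd7 and Brd9 at 0.02, -0.02 and -0.07.

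For 23 of the 24 uncalled genes the 95% interval of the genotype difference lay within 0.32 of 0 on the log2 scale, and the exception, Sirt4, ended at 0.43. Differences inside those intervals were not excluded. The intervals are from the fit without a lane term. With a lane term they were wider, for example -0.43 to 1.06 for Hdac1 and -0.34 to 1.01 for Sirt4.

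Within a treatment, the genotype difference could not be separated from the sequencing lane, as no lane held both genotypes. A lane term can be fitted only on the assumption that the genotype difference is the same in each treatment, and the median SE of the 10 called genes other than Crebbp then rose from 0.06 to 0.18. With it, Crebbp kept its call (-0.98 ± 0.18, adjusted p = 1.46e-05, DESeq2), none of the other 10 did (adjusted p from 0.316 for Kat2b), and 0.863% of all genes were called. All 10 kept their sign, and each of their intervals held the value without the lane term. Further from 0 with the lane term stood Kat2b (0.60), Hdac5 (-0.34), Hdac11 (-0.31), Hdac4 (-0.18) and Kat7 (-0.17). Nearer to 0 stood Hdac9 (-0.27), Hdac6 (0.17), Sirt1 (0.16), Ep300 (0.14) and Kat8 (0.05). Unadjusted, the intervals of Kat2b (0.16 to 1.04) and Hdac11 (-0.61 to -0.02) left out 0.

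With GC correction in place of the lane term, 12 of 35 genes were called, against 18.9% of all genes. Kat7 and Hdac4 were lost, and Kat2a (0.15, adjusted p = 0.0113), Sirt7 and Brd2 (0.12, adjusted p = 0.0232) were added.

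**Figure D4:**
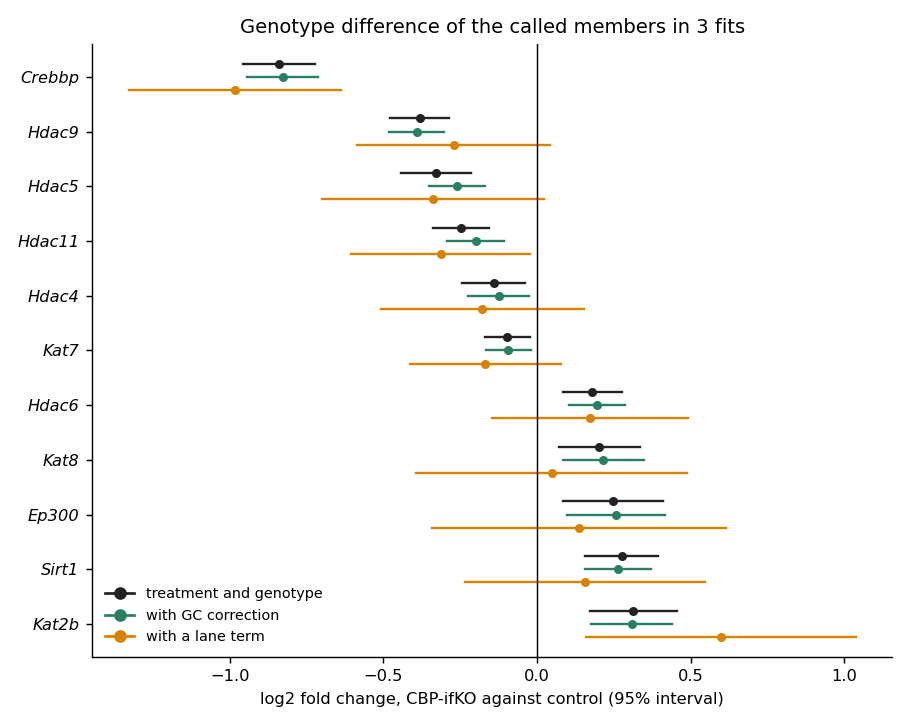
Genotype log2 fold changes with 95% intervals for the 11 called genes in 3 fits: treatment and genotype, the same with GC correction, and the same with a lane term. The estimates keep their side of 0, and the intervals with the lane term are the widest and cross 0 for 8 genes.

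Some cell type markers were called for genotype, and the shares are to be set beside the 19.3% of all genes. Of 10 astrocyte markers 4 were lower and 1 higher in CBP-ifKOs, with summed levels of 25670 to 27790 in controls and 22730 to 27390 in CBP-ifKOs. Of 10 excitatory neuron markers 2 were higher and 3 lower (31260 to 40390 against 35280 to 45060), and of 10 interneuron markers 2 were lower (9289 to 9919 against 8453 to 9435). Of 10 endothelial markers 1 was lower. DESeq2 and edgeR called 0 of 10 oligodendrocyte markers, with 4 at an unadjusted p under 0.05 (summed 30750 to 41260 against 28890 to 39640), and 0 of 10 microglia markers, with 1 at an unadjusted p under 0.05 (3315 to 3941 against 2851 to 4056). No marker of these lists was at 0 in all libraries. Their part in the enzyme differences was not tested. In the 12 libraries with low choroid plexus markers, 8 of 35 genes were called, against 11.8% of all genes: Crebbp, Hdac9, Hdac5, Hdac11, Kat2b and Hdac6 as before, with Hdac3 and Sirt7 added and Ep300, Sirt1, Kat8, Kat7 and Hdac4 lost.

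Within a single treatment few of the genes were called. In Sal, DESeq2 called 1 of 35, Crebbp, against 2.04% of all genes. In PTZ0 it called 4, namely Crebbp, Hdac9, Hdac5 and Ep300, against 6.68%. In PTZ45 it called 2, Crebbp and Hdac9, against 3.07%. Without Crebbp, the targeted gene, it called 0 of 34 in Sal, 3 (8.82%) in PTZ0 and 1 (2.94%) in PTZ45. These shares were near those of all genes. These comparisons use subsets of the libraries of the fit over all treatments and are not independent of it.

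No gene of the set was called in any comparison of PTZ treatments. Kindling with a last PTZ dose, against Sal, gave 0 of 35 called by DESeq2 and 0 by edgeR in controls, where 1.17% of all genes were called, with 6 at an unadjusted p under 0.05. In CBP-ifKOs it likewise gave 0 and 0, against 0.294% of all genes, with 2 at an unadjusted p under 0.05. Against PTZ0, where both groups were kindled, PTZ45 gave 0 and 0 in controls (1.25% of all genes, 3 unadjusted) and 0 and 0 in CBP-ifKOs (0.0872%, 3 unadjusted). Kindling without the last dose, PTZ0 against Sal, gave 0 by both tools in both genotypes, with 0 at an unadjusted p under 0.05 (0.00843% and 0.0112% of all genes). These pairs share libraries. PTZ45 and its comparison groups were in different lanes in controls, as were CBP-ifKO Sal and the kindled CBP-ifKOs, so that lane and treatment cannot be told apart there or in the interaction. PTZ45 against PTZ0 in CBP-ifKOs lay within lane 5, and PTZ0 against Sal in controls within lane 3.

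Hdac5 had the smallest p of the set in the 4 comparisons of PTZ45, although in controls against PTZ0 its unadjusted p (0.0193) was next to that of Sirt7 (0.0194), a nucleolar sirtuin. Sirt7 there stood at -0.32 ± 0.14 (adjusted p = 0.417), and at -0.31 ± 0.14 (adjusted p = 0.576) in controls against Sal. From its values above, PTZ45 was the treatment with the lowest Hdac5 in both genotypes. Against Sal the log2 fold change was -0.36 ± 0.11 in controls (adjusted p = 0.11, DESeq2) and -0.39 ± 0.11 in CBP-ifKOs (adjusted p = 0.139). Against PTZ0 it was -0.25 ± 0.11 in controls (adjusted p = 0.417) and -0.27 ± 0.09 in CBP-ifKOs (adjusted p = 1). None was called. PTZ45 libraries also had lower counts for GC-rich genes: the fitted trend at high against middle GC content was -0.27 to -0.07 (log2) in the 5 PTZ45 libraries and -0.08 to 0.17 in the other 12. With that trend removed, the 4 Hdac5 values became -0.16, -0.18, -0.09 and -0.13. Without either Control PTZ45 replicate that arm held 1 library, which the fit assumed to vary like the other group. Against Sal, Hdac5 in controls then stood at -0.54 (adjusted p = 9.84e-03) without replicate 1 and at -0.20 (adjusted p = 1) without replicate 2, and against PTZ0 at -0.43 (adjusted p = 7.87e-03) and -0.09 (adjusted p = 1). In CBP-ifKOs against Sal it was called without CBP-ifKO Sal replicate 1 (-0.50, adjusted p = 1.88e-03).

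Hdac9 stood the other way, at 0.24 ± 0.11 in controls (adjusted p = 0.501) and 0.15 ± 0.11 in CBP-ifKOs (adjusted p = 1) for PTZ45 against Sal. Its controls in PTZ45, at 907 and 1002, were above all Sal controls, without a call. Crebbp in controls stood at 0.13 ± 0.11 (adjusted p = 0.892) and Ep300 at 0.03 ± 0.14 (adjusted p = 0.996). Sirt6 stood at -0.47 ± 0.21 in controls (adjusted p = 0.538) and Sirt4 at -0.48 ± 0.21 in CBP-ifKOs (adjusted p = 0.919).

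The test of whether the PTZ45 response differs between genotypes called 0 of 35 with DESeq2 and 0 with edgeR, with 0 at an unadjusted p under 0.05, against 0.329% of all genes. The median SE of this difference for the 35 genes was 0.16 on the log2 scale and the farthest interval end 1.09, so that differences of less than that were not excluded for every gene. For Hdac5 the difference was -0.03 ± 0.16 (adjusted p = 1), for Hdac9 -0.09 ± 0.14 and for Crebbp -0.19 ± 0.16.

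**Figure D5:**
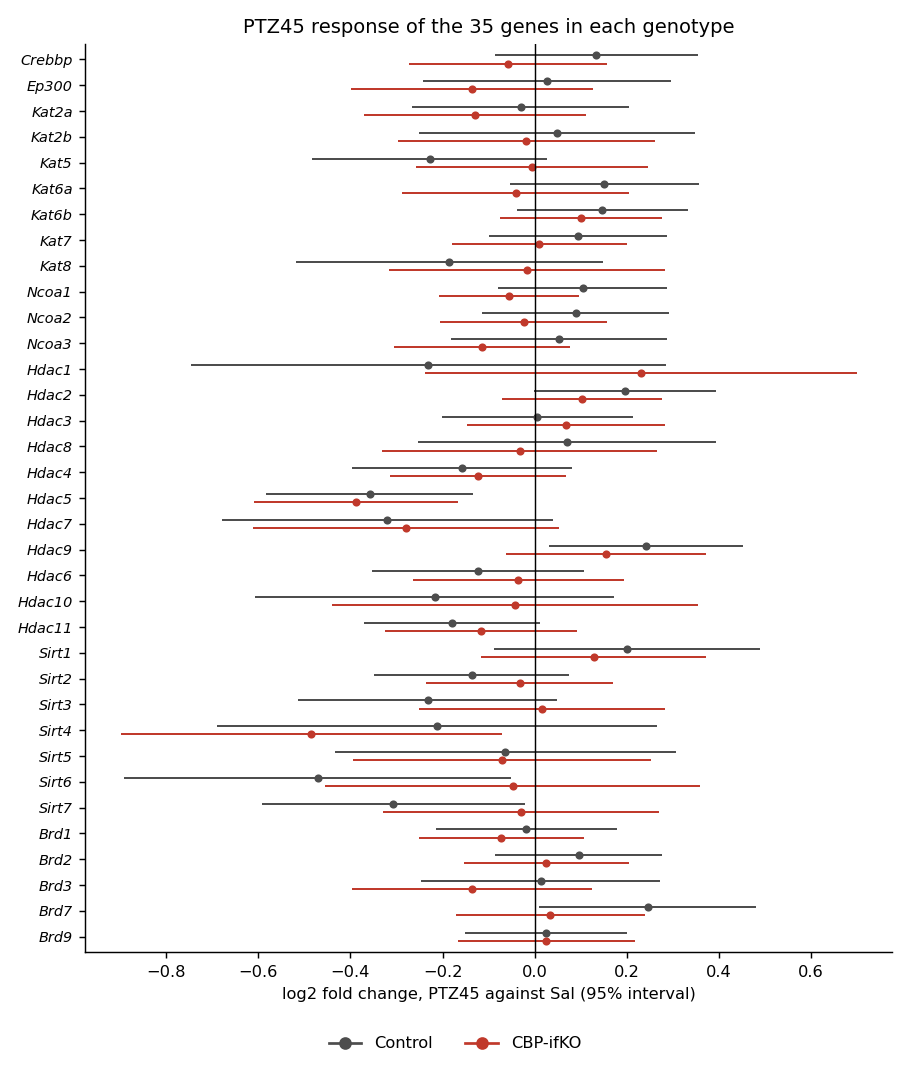
Log2 fold change of PTZ45 against Sal with 95% intervals for the 35 genes, in controls (grey) and CBP-ifKOs (red). Hdac5 lies at -0.36 and -0.39, and no gene was called in either genotype.

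Genes of the wider acetylation machinery differed in both directions. Of 129 other genes in 5 lists, 127 had an adjusted p and 36 of these were called for genotype over all treatments (28.3%, against 19.3% of all genes and 25.4% of genes with mean counts in the range of the 35), 19 higher and 17 lower. Their median log2 fold change was 0.03, and the changes of single genes in these lists are log2 fold changes ± SE.

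Of 31 other bromodomain and YEATS genes, 7 rose and 3 fell (32.3%, against 19.3% of all genes, 7.76% higher and 11.5% lower). Zmynd8, a reader that binds corepressors, fell by 0.27 ± 0.05 (adjusted p = 1.43e-06, DESeq2), from 1581 ± 118 (SD, n = 8) to 1306 ± 83.0 (SD, n = 9). Atad2, an ATPase with a bromodomain, fell by 0.33 ± 0.07 (adjusted p = 2.97e-05), and its paralogue Atad2b by 0.11 ± 0.04 (adjusted p = 0.0178). The higher genes included Brpf3 at 0.27 ± 0.09, Yeats4 at 0.22 ± 0.08 and Brwd3 at 0.20 ± 0.07, the last of which changed sign with a lane term.

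Of 10 other acetyltransferases, 2 rose and 1 fell (30% of them, against the same 19.3%). Nat10, which acetylates cytidine in RNA, rose by 0.34 ± 0.05 (adjusted p = 8.82e-11, DESeq2), from 398 ± 16.1 to 505 ± 23.1, with no overlap (383 to 432 against 479 to 540). Atat1, which acetylates tubulin, rose by 0.33 ± 0.08 (adjusted p = 2.17e-04); Hdac6, which removes that mark, stood at 0.18 ± 0.05. Naa50, an N-terminal acetyltransferase, fell by 0.20 ± 0.05 (adjusted p = 4.08e-04).

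Of 38 subunits of acetyltransferase complexes, 4 rose and 3 fell, which was 18.9% of the 37 with an adjusted p, against 19.3% of all genes. Supt20, of the SAGA complex that holds Kat2a or Kat2b, rose by 0.31 ± 0.04 (adjusted p = 1.18e-10, DESeq2), from 519 ± 25.9 to 644 ± 22.5, with no overlap. Ing4, a partner of Kat7, rose by 0.37 ± 0.11. Of the subunits that work with Kat8, Kansl3 rose by 0.17 ± 0.06 and Kansl1, named after its values were seen, by 0.14 ± 0.03 (adjusted p = 9.29e-04), while Mcrs1 fell by 0.30 ± 0.09 and Phf20 by 0.14 ± 0.03. Meaf6 fell by 0.15 ± 0.04 and changed sign with a lane term.

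Of 38 subunits of deacetylase complexes, 3 rose and 8 fell (29.7% of the 37 with an adjusted p), where 7.76% of all genes were called higher and 11.5% lower. Tbl1xr1, of the NCoR complexes that hold Hdac3, fell by 0.23 ± 0.03 (adjusted p = 2.92e-13, DESeq2), from 2648 ± 105 to 2264 ± 102, with no overlap. Ing1, of Sin3 complexes, fell by 0.265 ± 0.07 (adjusted p = 4.05e-03) and Rcor2, of CoREST complexes, by 0.39 ± 0.13 (adjusted p = 0.0151). Gatad2a, of NuRD, rose by 0.26 ± 0.06, Mier3 by 0.21 ± 0.05 and Sap130 by 0.19 ± 0.07.

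Of 12 genes that supply or use acetyl-CoA and NAD, 3 rose and 2 fell (41.7%, against 19.3% of all genes). Parp1, which consumes NAD, fell by 0.26 ± 0.04 (adjusted p = 2.28e-07, DESeq2), from 1821 ± 102 to 1515 ± 98.2, and Nmnat2, an NAD synthase of axons, fell by 0.18 ± 0.04 (adjusted p = 1.91e-05). Nmnat1, its nuclear counterpart, rose by 0.31 ± 0.11 (adjusted p = 0.0267). Acly, which makes acetyl-CoA from citrate, rose by 0.08 ± 0.03, and Slc33a1, an acetyl-CoA transporter, by 0.17 ± 0.07. Like Nat10, Supt20 and Tbl1xr1, the genes Parp1, Atad2 and Phf20 did not overlap between genotypes. Of all genes tested, 2.99% did not overlap. With a lane term, none of the genes named in these 5 lists was called, Kansl1 included (0.16, adjusted p = 0.99). Over all alternative fits, lane term included, Tbl1xr1 ran from -0.28 to -0.22, Zmynd8 from -0.31 to -0.24 and Nat10 from 0.27 to 0.38. Brwd3 and Meaf6 changed sign with the lane term. Rcor2 lost its call with GC correction and without Control Sal replicate 3 or CBP-ifKO Sal replicate 1. Slc33a1 lost its call with edgeR, TMM factors and the replicate number as a block, Acly with TMM factors and that block, and Brwd3 with the block and GC correction together. The calls of Slc33a1, Acly, Sap130, Brwd3 and Brpf3 were kept in 5, 6, 6, 7 and 9 of the 17 fits without 1 library, and those of Nmnat1 and Yeats4 in 10 and 11. Kansl3 kept its call in 13, losing it without Control PTZ45 replicate 2, CBP-ifKO PTZ0 replicate 1, CBP-ifKO Sal replicate 2 or Control Sal replicate 1, and Atad2b in 15, losing it without Control Sal replicate 2 or CBP-ifKO Sal replicate 3. In the 12 libraries with low choroid plexus markers, Atad2, Zmynd8, Nat10, Atat1, Naa50, Ing4, Supt20, Phf20, Gatad2a, Tbl1xr1, Parp1 and Nmnat2 were called as before. The other called genes of these lists named above lost their calls there, among them Mier3 (adjusted p = 0.056), Kansl1 (0.0566), Ing1 (0.0937), Kansl3 (0.119), Rcor2 (0.136), Meaf6 (0.156), Atad2b (0.168) and Mcrs1 (0.347).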

How the data were processed

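The authors deposited raw counts per gene. Per the labels and the study's methods, single-end reads were trimmed (Trim Galore 0.6.4), aligned to GRCm38 (STAR 2.6.1), filtered on mapping quality and counted on Ensembl exons with Rsubread; use of strand is not given in the sources used here. Of 18 count columns, 1, named like those of Control PTZ45, matched no sample and was not used. Symbols, lengths and GC content came from GENCODE M21 (99.6% of identifiers matched).

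The 35 genes and all lists were chosen with earlier results of these data known. The two-sided Wald test of DESeq2 1.42.0 (R 4.3.3) was run on genes with at least 1 count, Benjamini-Hochberg adjusted over all genes with independent filtering, and called under 0.05. Pairs of groups were fitted alone, genotype over all treatments with treatment as a term on 17 libraries, and the interaction on Sal and PTZ45 libraries. Alternatives were edgeR 4.0.16 (quasi-likelihood), TMM factors, a filter of 10 counts in 2 libraries, each library left out, the replicate number as a block, GC correction (loess, span 0.5, genes with a mean of at least 20), lane, 1 fit of all libraries and, added after marker sums were seen, the 12 libraries with low choroid plexus markers. Each library was from 1 male mouse, per the study's sample sheet. The fits were tested on simulated data. Values in every library are given for Crebbp, Ep300, every gene called in any of 11 comparisons and the smallest p of each class; from the other lists, up to 3 called genes per direction by size of change.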

Additional observations from a re-analysis of the deposited data

Results flagged for a closer look

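Hdac5 in Control PTZ45 replicate 2 stood apart from the other 7 control libraries, at 846 normalized counts, with the nearest other control at 1072. Its gap to that library was 0.541 of the range of all controls. This check was run on the 8 control and 9 CBP-ifKO libraries of 13 genes, 26 in all, and 1 stood out; chance gives about 1 in 20. The library is 1 of only 2 in its group, and the controls of this check span 3 treatments. Without it the Control PTZ45 arm is 1 library, assumed to vary like the CBP-ifKOs, and Hdac5 between genotypes in PTZ45 stood at -0.51 (adjusted p = 0.0404 with DESeq2), against -0.34 (adjusted p = 0.11) with it and -0.16 (adjusted p = 1) without replicate 1.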

How the results depend on the processing

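Between genotypes over all treatments the 11 calls became 1 with a lane term, 12 with GC correction and 8 to 12 without 1 library. In Sal the 1 call became 5 in 1 fit of all 17 libraries, and 1 to 4 without 1 library, with 4 without CBP-ifKO Sal replicate 3. In PTZ0 the 4 calls became 2 to 5, with 2 without Control PTZ0 replicate 1 or CBP-ifKO PTZ0 replicate 3. In PTZ45 the 2 calls became 1 with the replicate number as a block, 1 with that block and GC correction, and 1 to 2 without 1 library, with 1 without Control PTZ45 replicate 1 or any CBP-ifKO PTZ45 library. The 0 calls became 0 to 1, always Hdac5, for PTZ45 against Sal in controls and PTZ45 against PTZ0 in controls (both 1 without Control PTZ45 replicate 1), and for PTZ45 against Sal in CBP-ifKOs (1 without CBP-ifKO Sal replicate 1, and 1 in 1 fit of all 17 libraries). The other 4 comparisons kept 0 calls in each alternative run. Fits without a Control PTZ45 library left that arm with 1 library, assumed to vary like the other group. The cause was not tested.

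With a lane term Brwd3 stood at -0.0016 and Meaf6 at 0.021. Ep300 in PTZ45 ran from -0.014, without Control PTZ45 replicate 2, to 0.299, without replicate 1. The interaction for Hdac5 ran from -0.19 to 0.15 without 1 library: 0.007685 without Control Sal replicate 1, 0.029 and 0.032 without CBP-ifKO Sal replicates 2 and 3, and 0.15 without Control PTZ45 replicate 1. The replicate numbers gave no sign of pairing the samples. Of 40 same-numbered pairs, 15 correlated above 0.1 (from -0.523 to 0.532), and 80 different-numbered pairs ran from -0.513 to 0.725. Of 17 libraries, 7 correlated best with their own number. The count column of Control PTZ45 replicate 2 bears the number 3, so that the replicate block set it beside replicate 2 of the other groups. With 2 or 3 libraries a group, differences of the size seen over all treatments often missed the threshold within 1 treatment.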
